A study of Mus musculus with 9 samples.

Results

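Levels of 8 genes of cholesterol synthesis were followed in 9 mouse embryonic stem cell (mESC) lines on Affymetrix gene arrays. The genes were Hmgcs1, Idi1, Fdps, Fdft1, Sqle, Lss, Cyp51 and Insig1, a set of known targets of the transcription factor SREBP2. They were chosen with earlier results of these data known. A transcript cluster (the array's unit, a set of probes for 1 transcript region) was taken where the platform annotation gave one of these symbols alone. That rule found 10 clusters for the 8 genes, of 23410 clusters with an annotated gene. Idi1 and Fdft1 had 2 clusters each, and the cluster with the higher mean over the 9 lines stands for the gene unless the other one is named.

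The lines fell into 3 groups of 3. The mESCWM lines (WM1 to WM3) came from embryos fertilized in vitro and grown to blastocysts in Whitten's medium under 20% oxygen. The mESCKAA lines (KAA1 to KAA3) came from embryos fertilized in vitro and grown in KSOM with amino acids under 5% oxygen. The control mESCFB lines (FB1 to FB3) came from blastocysts flushed from the uterus after natural mating of superovulated females. The oocytes for in vitro fertilization also came from superovulated females. All were C57BL/6 lines labelled female, each derived from a single blastocyst on mouse fibroblast feeders in medium with LIF, 2 inhibitors of differentiation and serum, and taken at the eighth passage after the feeders had been removed by passage on gelatin. By the study's methods all 9 lines were thus grown alike after derivation, and the groups were defined by the embryo's history. Other differences between the lines are given below. Medium and oxygen changed together between the mESCWM and mESCKAA groups, so their parts cannot be told apart.

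Cholesterol is built from acetyl-CoA through mevalonate, the isoprenoids, squalene and lanosterol. SREBP2 is held in the endoplasmic reticulum by its escort SCAP and the INSIG proteins while membrane sterol is plentiful. When sterol falls, SREBP2 is carried to the Golgi, cut by proteases and released to the nucleus, where it binds sterol regulatory elements in the promoters of the enzymes, usually beside sites for NF-Y and Sp1. Insig1 is itself a target and closes the feedback loop. Among the 8 genes, Hmgcs1 makes HMG-CoA, Idi1 isomerizes isopentenyl diphosphate, Fdps makes farnesyl diphosphate, Fdft1 joins farnesyl units into squalene, Sqle oxidizes squalene, Lss closes the rings to lanosterol, and Cyp51 removes a methyl group from lanosterol.

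RefSeq promoters (GRCm38.p6, 250 bases before to 50 after the start of the gene) were at hand for 5 of the 8 genes, Hmgcs1, Idi1, Insig1, Cyp51 and Lss. They were searched on both strands for TCACNCCAC (the core of a sterol regulatory element), CCAAT (the NF-Y box) and GGGCGG (the Sp1 box). These 2 promoters are shown because Hmgcs1 alone held the sterol element without a mismatch, and because Idi1 was the gene whose levels followed the others least. Capitals mark the sterol element and the CCAAT boxes, which read ATTGG on the opposite strand. The Hmgcs1 stretch is chr13:119690171-119690350 (plus strand) and the Idi1 stretch chr13:8885526-8885605 (plus strand), and both end at the base before the start.
Hmgcs1: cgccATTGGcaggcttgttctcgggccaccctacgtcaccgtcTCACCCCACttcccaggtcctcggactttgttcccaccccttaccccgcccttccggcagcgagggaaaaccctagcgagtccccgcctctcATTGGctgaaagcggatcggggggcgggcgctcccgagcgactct
Idi1: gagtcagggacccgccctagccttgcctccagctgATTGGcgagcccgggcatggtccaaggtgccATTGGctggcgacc
The element in Hmgcs1 began at base -137 from the start, and 1.24% of 32851 promoters of the same length held an exact match. With 1 mismatch allowed, Hmgcs1, Insig1 and Cyp51 had a match, as did 24.2% of all promoters. A CCAAT box was present in all 5 promoters, with 4 in Hmgcs1, 2 in Idi1 and 1 each in Insig1, Cyp51 and Lss, against 37.4% of all promoters with at least 1. A GGGCGG box was also present in all 5, against 35.7% of all promoters. These are matches of letters and not measured binding.

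The deposited values were log2 levels, with medians over the annotated clusters between 4.64 and 4.70 in the 9 lines, and all 8 genes lay above those medians in every line. The 12 mESC markers tested were all above the first quartile of the clusters (3.08) in every line. Of these markers, 8 were lower in mESCWM than in mESCFB lines (median difference -0.13). In mESCKAA minus mESCFB, 10 were lower (median -0.15), and none passed limma in either comparison. Of the clusters within 0.5 log2 units of each marker's mean, 32.2% to 49.8% were higher in mESCWM than in mESCFB lines. For mESCKAA against mESCFB lines these shares were 22.9% to 35.6%, so lower values were common at such levels. Less the median difference of those clusters, the medians of the markers were -0.12 and -0.11. Pou5f1 and Tdgf1, both high in pluripotent cells, were the 2 markers below every mESCFB line in all mESCWM lines (differences of -0.26 and -0.27) and in all mESCKAA lines (differences of -0.17 and -0.11). Groups lay apart in this direction for 1066 and 866 of all 23410 clusters. The 4 markers higher in mESCWM than in mESCFB lines were Nanog (0.26), Klf2 (0.18), Tfcp2l1 (0.047) and Sox2 (0.038), each with overlapping groups. In mESCKAA minus mESCFB, Dppa5a (0.055) and Klf2 (0.00165) were above 0. Although all lines were labelled female, the Y-linked gene Eif2s3y stood at 5.19 in WM3, 3.72 in KAA2 and 4.78 in FB1, against 1.77 to 2.20 in the other 6 lines. Uty was likewise highest in these 3 lines, at 4.42 in WM3, 3.099 in KAA2 and 2.63 in FB1, against 1.77 to 2.11 elsewhere. Kdm5d, also Y-linked, was below the first quartile in every line and not raised in these 3, at 2.04 in WM3, 1.96 in KAA2 and 2.04 in FB1, with its highest value, 2.46, in WM2. The results are therefore also given without WM3, KAA2 and FB1. Markers of fibroblasts, the feeder cells, had a mean log2 level of 5.73 to 5.90 in mESCWM, 5.61 to 5.72 in mESCKAA and 5.52 to 5.55 in mESCFB lines. Their summed level was 12.16 to 12.45 in mESCWM, 12.03 to 12.26 in mESCKAA and 11.89 to 12.08 in mESCFB lines, in log2 units. The sum was taken before the log, so Sparc, at 10.87 to 11.59 in the 9 lines, weighed most in it. Collagen genes such as Col1a1, at 4.59 to 5.32, added little. Of the 18 fibroblast markers, 16 were higher in mESCWM than in mESCFB, 14 in mESCKAA than in mESCFB and 12 in mESCWM than in mESCKAA. The shares of all clusters that were higher in these comparisons were 51.5%, 52.3% and 47.8%. The widest differences of mESCWM minus mESCFB in the fibroblast list were those of Acta2 (1.10, 2.14-fold, adjusted p = 0.685 by limma, past the rank product at a proportion of false positives of 0.0475), Bgn (0.90), Fn1 (0.73) and Vim (0.57), of which Fn1 alone had overlapping groups. Bgn read 6.28, 6.22 and 5.23 in WM1, WM2 and WM3. Without WM3, it differed by 1.24 and passed limma (adjusted p = 0.0229). How many of all clusters passed in that setting was not counted, so whether Bgn stood out there cannot be told. Lum and Postn, which also mark fibroblasts, stayed below the first quartile in every line. These markers were named after their values were seen. The part of feeder cells and of the mESC state in the results was not tested, and in bulk RNA fewer cells of a type and less RNA per cell cannot be told apart.

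The first comparison asked whether lines from Whitten's medium kept a different level of these genes than lines from flushed blastocysts. The group means of 7 of the 8 genes were higher in mESCWM lines, with a median difference of 0.18 on the log2 scale over the 8 genes, against 0.0046 over all 23410 clusters. After subtraction of the median difference of clusters of like level (within 0.5 log2 units of the gene's mean), the median was 0.21. No gene passed limma at an adjusted p of 0.05, as was so for 0% of all clusters, and none passed the rank product at a proportion of false positives of 0.05, which 0.0982% of all clusters did. At an unadjusted p of 0.05, 2 of the 8 genes (Fdft1 and Fdps) were higher in mESCWM lines, against 2.73% of all clusters. In 3 of 8 (Fdft1, Fdps and Sqle) every mESCWM line was above every mESCFB line, against 3.58% of all clusters.

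**Figure D1:**
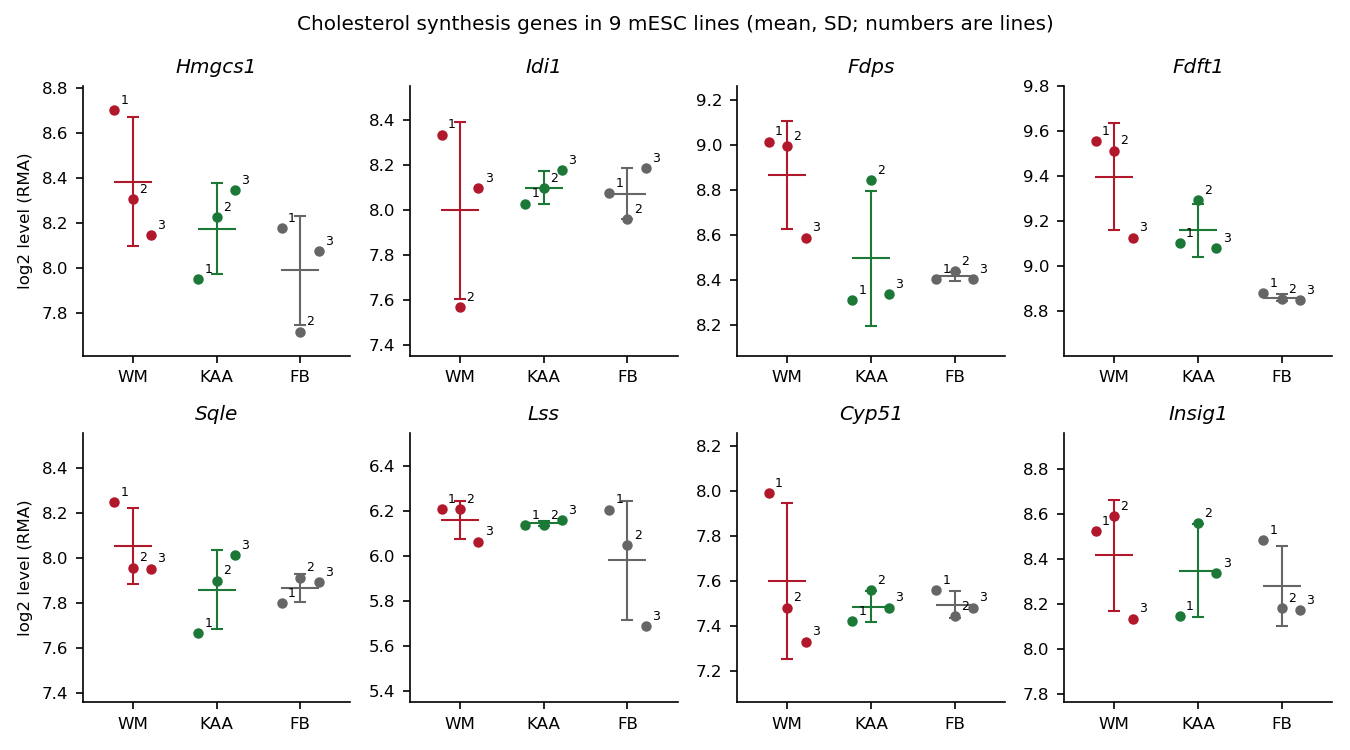
Log2 level of each gene (y axis; all panels span the same range) in the mESCWM, mESCKAA and mESCFB lines (x axis), with points numbered by line, a bar at the group mean and whiskers of 1 SD (n = 3). For Fdft1 the 3 mESCFB lines lie between 8.85 and 8.88, below all 6 lines from in vitro fertilization, whereas Idi1 is lowest in WM2.

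Fdft1, squalene synthase, had the largest difference of the 8. Its log2 level was 9.56, 9.52 and 9.13 in WM1, WM2 and WM3, 9.10, 9.29 and 9.08 in KAA1, KAA2 and KAA3, and 8.88, 8.86 and 8.85 in FB1, FB2 and FB3. All 3 mESCWM lines and all 3 mESCKAA lines were thus above every mESCFB line, while WM3 lay within the range of the mESCKAA lines. The mean in mESCWM lines was 9.40 ± 0.24, against 8.86 ± 0.017 in mESCFB lines (SD, n = 3 each), a difference of 0.54 (SE 0.12, 95% interval 0.27 to 0.81, 1.45-fold, unadjusted p = 0.00167, adjusted p = 0.685 by limma). The second Fdft1 cluster read 9.15, 8.73 and 8.53 in the mESCWM lines, against 8.56, 8.61 and 8.47 in the mESCFB lines. There the groups overlapped, because WM3 was below FB1 and FB2, and the difference was 0.26 (SE 0.17, adjusted p = 0.850 by limma).

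Fdps, the enzyme just before Fdft1 in the pathway, read 9.02, 9.00 and 8.59 in WM1, WM2 and WM3, against 8.41, 8.44 and 8.41 in FB1, FB2 and FB3. The groups did not overlap, and WM3 was the lowest of its group, as it was for Fdft1. The difference was 0.45 (SE 0.16, 95% interval 0.078 to 0.82, 1.37-fold, unadjusted p = 0.0232, adjusted p = 0.819 by limma). Hmgcs1, at the head of the pathway, read 8.70, 8.31 and 8.15 in the mESCWM lines, against 8.18, 7.72 and 8.07 in the mESCFB lines. Here WM3 was below FB1, so the groups overlapped, with a difference of 0.40 (SE 0.18, adjusted p = 0.819 by limma).

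The other genes differed less. Sqle read 8.25, 7.96 and 7.95 in mESCWM lines, against 7.80, 7.91 and 7.89 in mESCFB lines, so that all mESCWM lines were higher, WM1 by the widest margin, and the difference was 0.19 (95% interval -0.077 to 0.45). Lss differed by 0.18 (95% interval -0.10 to 0.46), Insig1 by 0.14 (-0.22 to 0.49) and Cyp51 by 0.11 (-0.24 to 0.45), each with overlapping groups. For Cyp51, 7.99 in WM1 stood above all 8 other lines, which lay between 7.33 and 7.56, and without WM1 the difference was -0.089. Idi1 was the exception in direction, at 8.33, 7.57 and 8.09 in WM1, WM2 and WM3, against 8.07, 7.96 and 8.18 in FB1, FB2 and FB3. WM1 was the highest and WM2 the lowest of all 9 lines for this gene, and its second cluster had the same order at the ends, 7.81 in WM1 and 7.10 in WM2. The difference of Idi1 was -0.07 (95% interval -0.47 to 0.32).

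**Figure D2:**
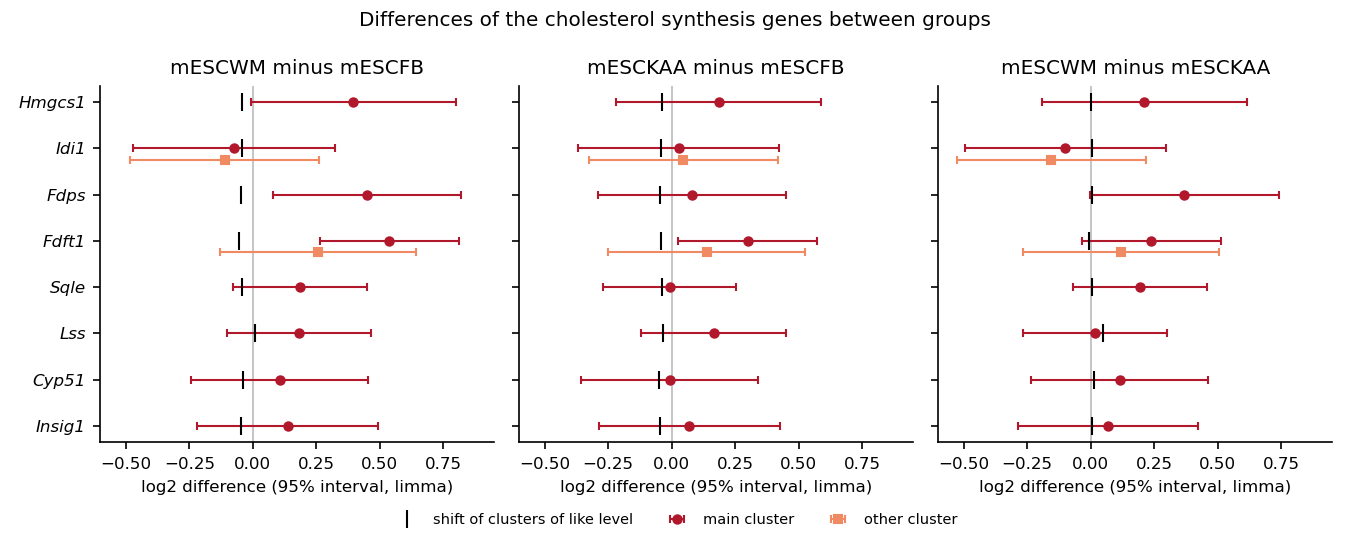
Log2 difference between groups (x axis) for each gene (y axis), with 95% intervals from limma. Circles are the cluster used for the gene, squares the second cluster of Idi1 and Fdft1, and black ticks the median difference of clusters of like level. In mESCWM minus mESCFB the intervals of Fdft1 and Fdps lie above 0 before adjustment, and in mESCKAA minus mESCFB that of Fdft1.

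The second comparison set the mESCKAA lines against the mESCFB lines, which are the same control lines as above. Differences were smaller, with 6 of 8 genes higher in mESCKAA lines and a median of 0.074 (0.12 after subtraction of the shift of like level), against 0.0067 over all clusters. No gene passed limma (0% of all clusters passed) or the rank product (0.103%). At an unadjusted p of 0.05, 1 gene, Fdft1, was higher, against 2.73% of all clusters, and the same gene was the 1 of 8 whose groups did not overlap, against 4.38%. The Fdft1 mean was 9.16 ± 0.12 in mESCKAA lines and 8.86 ± 0.017 in mESCFB lines (SD, n = 3 each), a difference of 0.30 (SE 0.12, 1.23-fold, adjusted p = 0.918 by limma). The second Fdft1 cluster read 8.48, 8.96 and 8.61 in the mESCKAA lines, against 8.56, 8.61 and 8.47 in the mESCFB lines. There the groups overlapped, and the difference was 0.14 (SE 0.17, adjusted p = 0.942 by limma). For Fdps, KAA2 read 8.84 while KAA1 and KAA3 read 8.31 and 8.34, below the 8.41 to 8.44 of the mESCFB lines, and the difference of 0.080 became -0.093 without KAA2. Hmgcs1 differed by 0.18, Lss by 0.16, Insig1 by 0.069, Idi1 by 0.027, Sqle by -0.0082 and Cyp51 by -0.0083, all with overlapping groups. Lss was even among the mESCKAA lines (6.14 to 6.16) and uneven among the mESCFB lines (5.69 to 6.21).

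The third comparison, mESCWM against mESCKAA, concerned the medium and oxygen of the cultured embryos. Again 7 of 8 genes were higher in mESCWM lines, with a median of 0.15 (0.15 less the shift of like level), against -0.0068 over all clusters. No gene passed limma (0% of clusters) or the rank product (0.316%), none was higher at an unadjusted p of 0.05 (3% of clusters), and none had groups that did not overlap (4.03% of clusters). Fdps came nearest, at 8.87 ± 0.24 in mESCWM lines and 8.50 ± 0.30 in mESCKAA lines (SD, n = 3 each), a difference of 0.37 (SE 0.16, 95% interval -0.0025 to 0.74, adjusted p = 0.771 by limma). Fdft1 differed by 0.24, Hmgcs1 by 0.21, Sqle by 0.19, Cyp51 by 0.11, Insig1 by 0.068, Lss by 0.016 and Idi1 by -0.10.

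The genes varied by line as well as by group. WM1 was the highest of the 9 lines for 7 of the 8 genes, and Insig1 was highest in WM2. The median deviation of the 8 genes from their own means was 0.37 in WM1, 0.12 in WM2 and -0.022 in WM3, 0.043 in KAA2, 0.027 in KAA3 and -0.15 in KAA1, and 0.0058 in FB1, -0.13 in FB2 and -0.14 in FB3. The mESCWM group thus held 1 line far above the rest and 1 line, WM3, at the middle of all lines. Without WM1 the median difference of mESCWM from mESCFB was 0.12, and from mESCKAA 0.033. Without WM3 the median difference from mESCKAA was 0.25. The median difference of mESCKAA from mESCFB was 0.00031 without KAA2 and 0.17 without KAA1.

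**Figure D3:**
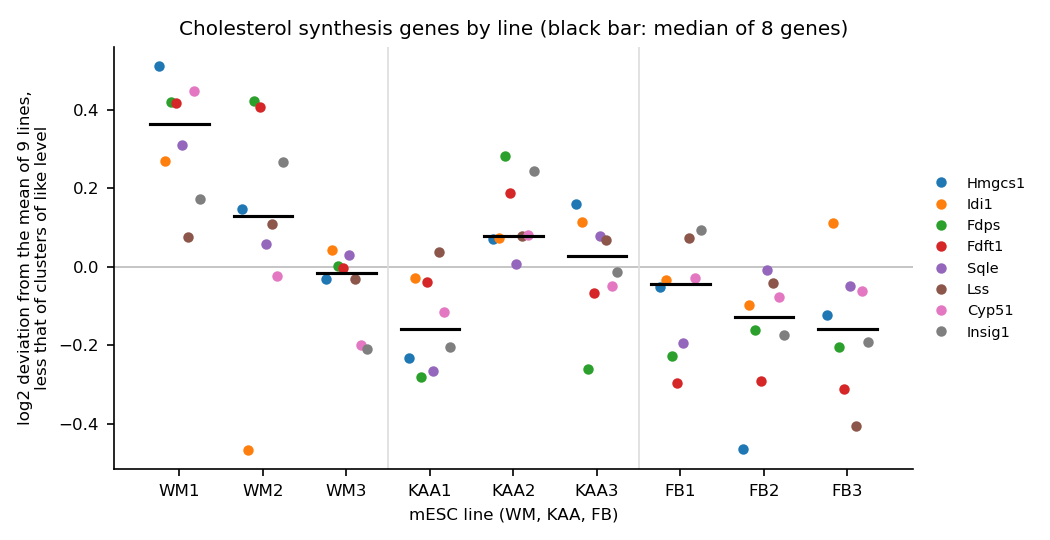
Deviation of each gene from its mean over the 9 lines, less the median deviation of clusters of like level (y axis, log2), by line (x axis). Points are genes and black bars the median of the 8 genes. WM1 is highest at 0.36 and KAA1 lowest at -0.16, and Idi1 in WM2 lies apart from the other genes of that line.

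Leaving out the 3 lines with Y-linked signal (WM3, KAA2 and FB1) left 2 lines a group. The median difference was then 0.36 for mESCWM against mESCFB and 0.30 for mESCWM against mESCKAA. Fdft1 differed by 0.68 (adjusted p = 0.290), Fdps by 0.58 (adjusted p = 0.291), Hmgcs1 by 0.61 (adjusted p = 0.517) and Insig1 by 0.38 (adjusted p = 0.401) between mESCWM and mESCFB lines, so no gene passed limma in this setting either. In mESCKAA minus mESCFB, Fdps turned to -0.099 and Fdft1 differed by 0.24. The mESCFB lines kept here, FB2 and FB3, had the highest X-linked levels of the 9 lines. X-linked genes had a median deviation of 0.29 in FB2 and 0.14 in FB3, against -0.098 (KAA2) to -0.014 (WM1) elsewhere. Xist read 3.95 in FB2 and 3.13 in FB3, against 2.53 to 2.97 elsewhere. In this setting X-linked level cannot be told apart from the contrast with mESCFB lines. The part of the lines' sex and of X-linked level in these values was not tested.

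Across the 9 lines, levels of the 8 genes tended to go together. Over the 28 pairs the median Pearson's r was 0.56 (range -0.22 to 0.88) and the median Spearman's rho 0.51, and 24 pairs were above 0, but none passed after adjustment over the 28. The closest pair was Fdps and Fdft1, with r = 0.88 (exact permutation p = 0.00267, adjusted p = 0.0746, two-sided) and rho = 0.72 (exact permutation p = 0.0369, adjusted p = 0.189). Their r was 0.63 without WM1 and WM2, the lines farthest from the median, and 0.90 when each group was centred on its own mean. Over all pairs the median r was 0.52 within groups and 0.26 without WM1. Idi1 followed the mean profile of the 8 genes least, with r = 0.19, against 0.92 for Hmgcs1 and 0.86 for Fdft1, and each gene is part of that profile. The 2 clusters of Idi1 had r = 0.95 with each other and those of Fdft1 r = 0.77.

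The clusters outside the 8 genes with the profile most like theirs, of 10921 with a single symbol and at or above the median level, were Glipr2 (r = 0.97), Colec12 (0.95), Men1 (0.94), Scd2 (0.94) and Prom1 (0.94), over 9 lines. The mean profile stood at 0.34 in WM1 and at 0.093 or less in every other line, and WM1 was the highest line for each cluster named. Their r without WM1 was not computed. The median r of the 10921 clusters was 0.0085 and the 95th percentile 0.72. Among the markers, S100a4 (r = 0.84), Fn1 (0.81) and Bgn (0.77) of the fibroblast list lay above that percentile. Lox (0.76) did too, but at 3.06 to 3.47 it was below the median level and so outside those clusters. Dcn (-0.46), Lum (-0.435), Col1a2 (-0.24), Thy1 (-0.20) and Col6a1 (-0.057) had r below 0. The median r of the 18 fibroblast markers was 0.30, and that of the 12 mESC markers was -0.36. Scd2, a stearoyl-CoA desaturase, read 10.33, 9.81 and 8.94 in WM1, WM2 and WM3, 9.06, 9.74 and 9.18 in KAA1, KAA2 and KAA3, and 9.23, 8.85 and 9.17 in FB1, FB2 and FB3. It was high in WM1, WM2 and KAA2 and lowest in FB2.

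Of 14 other listed enzymes of cholesterol synthesis, 11 had a cluster of their own. In each of the 3 comparisons 7 of the 11 were above 0, with medians of 0.073 for mESCWM minus mESCFB, 0.044 for mESCKAA minus mESCFB and 0.091 for mESCWM minus mESCKAA, and none passed limma. Of all clusters, 51.5%, 52.3% and 47.8% were above 0 in these comparisons. The same shares stand beside the counts of the lists that follow, and with so few genes a list these counts are description only. Tm7sf2, a sterol reductase, had the widest difference, reading 6.64, 6.38 and 6.31 in the mESCWM lines, against 5.85, 6.09 and 5.55 in the mESCFB lines. The groups did not overlap, and the difference was 0.61 (SE 0.16, 1.53-fold, adjusted p = 0.771 by limma). It was 0.38 between mESCWM and mESCKAA lines and 0.23 between mESCKAA and mESCFB lines. Hsd17b7, a sterol ketoreductase, was 0.19 higher in mESCKAA than in mESCFB lines. Sc5d, a sterol desaturase, ran the other way, at 7.29, 6.95 and 7.27 in the mESCWM lines, against 7.42, 7.43 and 7.55 in the mESCFB lines. All mESCWM lines were lower, by 0.30 (SE 0.11, adjusted p = 0.819 by limma), and they were 0.42 below the mESCKAA lines (adjusted p = 0.752).

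Of 10 listed genes of the control of SREBP, 8 had a cluster, of which 2 were above 0 in mESCWM minus mESCFB, 3 in mESCKAA minus mESCFB and 3 in mESCWM minus mESCKAA, with none past limma. Srebf2, which encodes SREBP2, averaged 8.29 in mESCWM, 8.15 in mESCKAA and 8.03 in mESCFB lines, with differences of 0.26 (mESCWM minus mESCFB, SE 0.12, adjusted p = 0.819 by limma), 0.12 (mESCKAA minus mESCFB) and 0.14 (mESCWM minus mESCKAA). WM1 had the highest Srebf2 level of all lines, 8.55, and FB3 the lowest, 7.88. Srebf1, which encodes the related SREBP1, was 0.30 higher in mESCWM than in mESCKAA lines. Mbtps1, the first protease that cuts SREBP, differed by -0.16 between mESCKAA and mESCFB lines. Ubxn8, an endoplasmic reticulum protein that stood in the list although it has no established part in SREBP control, read 5.39, 5.47 and 5.501 in mESCWM lines, against 6.06, 6.04 and 5.95 in mESCFB lines. These groups lay apart, by -0.57 (SE 0.080, adjusted p = 0.475 by limma), and Ubxn8 also differed by -0.26 in mESCKAA minus mESCFB and by -0.31 in mESCWM minus mESCKAA.

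**Figure D4:**
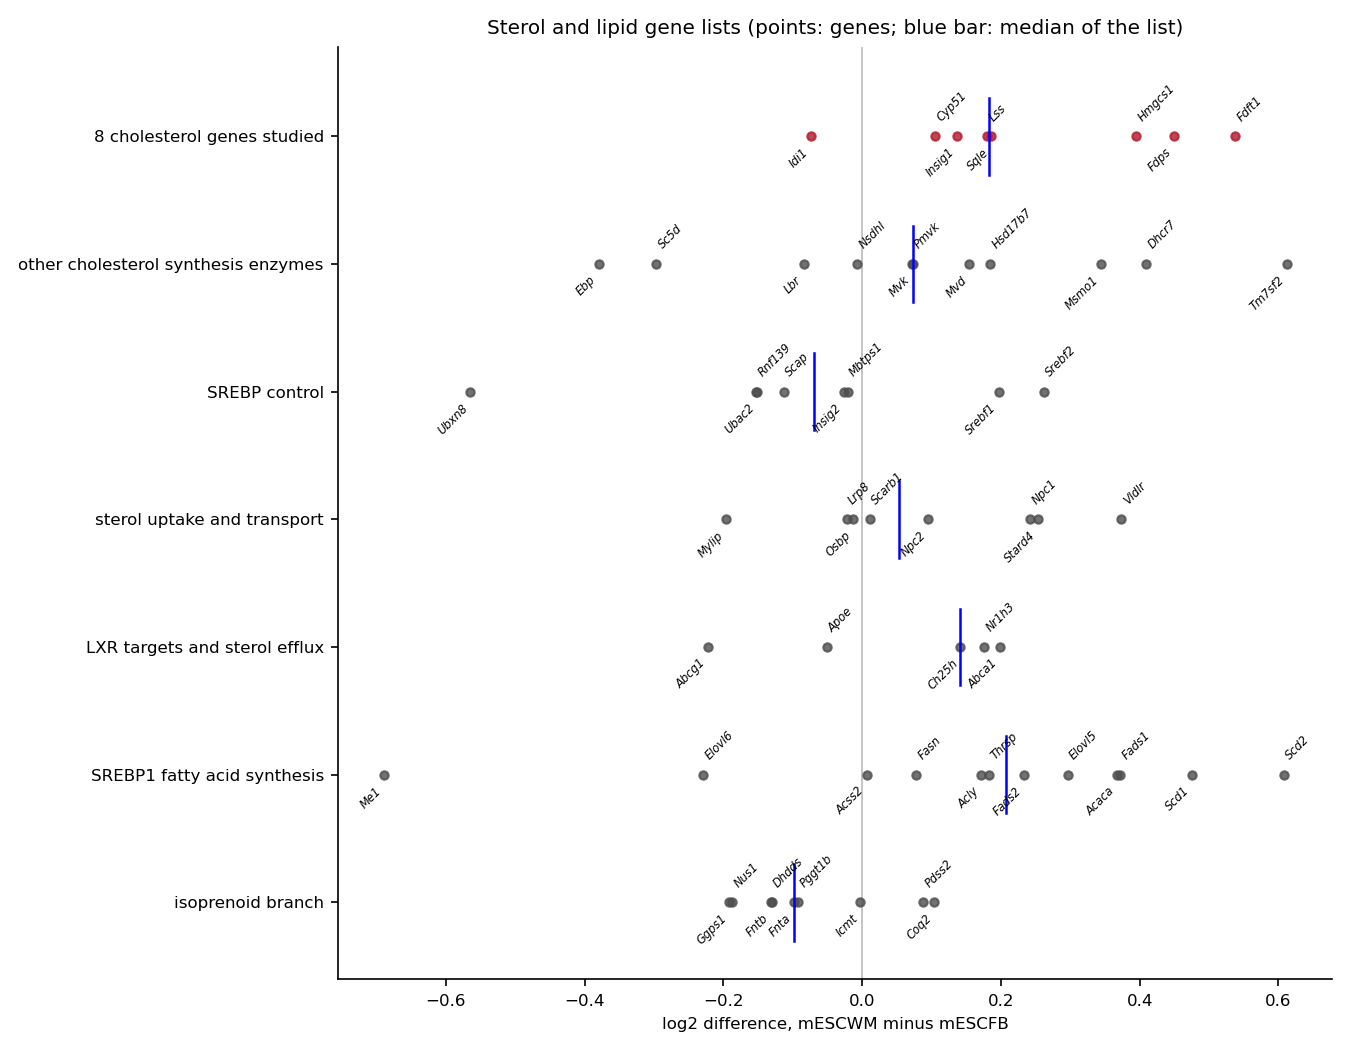
Log2 difference of mESCWM minus mESCFB (x axis) for the genes of 7 lists (y axis), with a blue bar at the median of each list. The 8 genes have their median at 0.18 and the fatty acid list at 0.21, whereas the SREBP control list lies at -0.07 and the isoprenoid branch at -0.10.

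Genes that take up and move sterol were measured for 8 of 10 listed. Above 0 were 5 in mESCWM minus mESCFB, 6 in mESCKAA minus mESCFB and 6 in mESCWM minus mESCKAA, none past limma. Vldlr, a lipoprotein receptor, was 0.37 higher in mESCWM than in mESCFB lines (SE 0.13, adjusted p = 0.819 by limma) and 0.32 higher than in mESCKAA lines. Stard4, a cytosolic sterol carrier, differed by 0.25 in mESCWM minus mESCFB and by 0.22 in mESCWM minus mESCKAA. In mESCKAA minus mESCFB, Npc1, which exports sterol from lysosomes, differed by 0.17, and Osbp, an oxysterol-binding protein, by -0.12. Genes of sterol efflux and targets of the sterol-sensing receptor LXR were measured for 5 of 7, none past limma. Nr1h3, which encodes an LXR, was 0.18 higher in mESCWM than in mESCFB lines and 0.19 higher than in mESCKAA lines. Abcg1, a sterol exporter, differed by -0.22 (mESCWM minus mESCFB), -0.17 (mESCWM minus mESCKAA) and -0.054 (mESCKAA minus mESCFB), and Abca1, another exporter, by 0.057 in mESCKAA minus mESCFB.

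The fatty acid genes, targets of SREBP1, were all measured. Of the 12, 10 were above 0 in mESCWM minus mESCFB (median 0.21), 6 in mESCKAA minus mESCFB (median -0.0072) and 9 in mESCWM minus mESCKAA (median 0.19), with none past limma. Scd1, a stearoyl-CoA desaturase, read 8.44, 8.52 and 7.49 in WM1, WM2 and WM3, against 7.81, 7.57 and 7.64 in FB1, FB2 and FB3. WM1 and WM2 were high and WM3 was below all 3 mESCFB lines, and the difference was 0.48 (SE 0.24, adjusted p = 0.819 by limma). Fads1 and Fads2, desaturases of polyunsaturated fatty acids, were 0.63 and 0.48 higher in mESCWM than in mESCKAA lines (adjusted p = 0.771 and 0.752), and differed by -0.26 and -0.25 in mESCKAA minus mESCFB. Me1, the malic enzyme that supplies NADPH, went the other way, by -0.69 in mESCWM minus mESCFB (SE 0.23, adjusted p = 0.819) and by -0.84 in its second cluster. Of the isoprenoid branch, which draws on the products of Fdps, 9 of 10 genes were measured. Of these, 2 were above 0 in mESCWM minus mESCFB, 4 in mESCKAA minus mESCFB and 3 in mESCWM minus mESCKAA. Ggps1, geranylgeranyl diphosphate synthase, differed by -0.19 in mESCWM minus mESCFB and -0.27 in mESCWM minus mESCKAA, Fntb, a farnesyltransferase subunit, by -0.13 in mESCWM minus mESCFB and -0.29 in mESCKAA minus mESCFB, Dhdds, of dolichol synthesis, by -0.19 in mESCKAA minus mESCFB, and Pdss2, of ubiquinone synthesis, by 0.22 in mESCWM minus mESCKAA.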

How the data were processed

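Expression was measured once per line in 9 lines, 3 per group, grouped by the labels. Per the submitters' processing notes the authors used Affymetrix Expression Console and R 3.1.0, and their methods name RMA, so the deposited values are log2 levels after background correction, normalization between arrays and summary of probes. The genome build was not given in the sources used here. Of 35556 clusters, 12146 without an annotated gene were left out and 23410 tested (21789 with 1 symbol, 1621 with several). The files give no depth or detection calls, and the number of arrays limits precision.

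One linear model over the 3 groups (limma 3.58.1, R 4.3.3, eBayes, Benjamini-Hochberg adjustment over all tested clusters, threshold 0.05) gave differences, standard errors and 95% intervals. The rank product, the test of the study's methods, was computed with 100 permutations. Correlations used exact permutation tests (scipy 1.17.1). Scripts were tested on simulated data. Each line is a separate derivation, so p-values measure the spread between lines. The 8 genes and all gene lists were chosen with earlier results of these data known. Named genes were the 8 genes, up to 2 genes with the smallest limma p of each other list per comparison, Srebf2 (and other genes fixed by name, not analysed here) in every comparison, and the 5 clusters most like the mean profile; Scd2 and the second clusters follow from these rules or from the same genes. Alternatives were other scalings (median centring, quantile normalization), other sets of clusters, another moderation, a rank product threshold of 0.10, a like-level window of 1 log2 unit, a replicate block, each line left out in turn, WM3, KAA2 and FB1 left out together, and the other cluster of Idi1 and Fdft1, which was added after seeing the data.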

Additional observations from a re-analysis of the deposited data

How the results depend on the processing

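No gene of the 8 passed limma or the rank product under any alternative run. The lowest adjusted p of the 8 was 0.171, for Fdft1 in mESCWM minus mESCFB without WM3. The medians of the 8 genes kept their sign in all alternatives, but moved by more than the spread between lines when WM3, KAA2 and FB1 were left out together. In mESCWM minus mESCFB they were then 0.36 (0.36 less the shift of like level), and in mESCWM minus mESCKAA 0.30 (0.31 less the shift). The mESCFB lines kept in that setting, FB2 and FB3, were those with the highest X-linked levels, and the part of this was not tested. Leaving out 1 line at a time gave medians from 0.12 to 0.27 in mESCWM minus mESCFB (lowest without WM1, highest without FB1), 0.00031 to 0.17 in mESCKAA minus mESCFB (lowest without KAA2, highest without KAA1) and 0.033 to 0.25 in mESCWM minus mESCKAA (lowest without WM1, highest without WM3).

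Small differences changed sign. Under quantile normalization Sqle and Cyp51 in mESCKAA minus mESCFB were 0.044 and 0.044, and Lss in mESCWM minus mESCKAA was -0.026. Without WM3, KAA2 and FB1 together, Fdps was -0.099 and Abcg1 0.037 in mESCKAA minus mESCFB. With 1 line left out, in mESCKAA minus mESCFB Sqle ranged from -0.084 to 0.088, Insig1 from -0.037 to 0.17, Idi1 from -0.031 to 0.083, Fdps from -0.093 to 0.17, Cyp51 from -0.044 to 0.025, Abcg1 from -0.14 to 0.0087 and Abca1 from -0.056 to 0.27. In mESCWM minus mESCFB Idi1 ranged from -0.24 to 0.14 and Cyp51 from -0.089 to 0.24. In mESCWM minus mESCKAA Insig1 ranged from -0.033 to 0.21, Idi1 from -0.27 to 0.12, Cyp51 from -0.081 to 0.25 and Lss from -0.0085 to 0.064. Apart from the lines left out, the cause was not tested.

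The labels give line numbers 1 to 3 in each group. They do not say that the numbers pair lines, so the main model had no block. Of 9 pairs of lines with the same number, 5 had correlated deviations over 0.1 (range -0.013 to 0.33). Among lines of the other groups, 8 of 9 lines correlated best with a line of their own number. Lines of the same number may thus share something that the main p-values do not account for, and its source was not tested. With the replicate block 0 of the 8 genes passed limma, and Fdft1 in mESCWM minus mESCFB had an adjusted p of 0.494, against 0.685 without the block.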
